A study of Homo sapiens with 4 samples.

Results

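The apolipoprotein L (APOL) family was represented by 5 genes, APOL1, APOL2, APOL3, APOL4 and APOL6, taken by gene symbol from the deposited transcript tables. They held 15 of the 63714 transcripts and were 5 of the 27685 genes in the tables. RNA was sequenced from HT-29, a colon cancer cell line, carrying either the control vector (genotype WT in the labels) or stably overexpressing TRIM40 with a Myc tag at its N-terminus (Myc-TRIM40). Both groups carried a retroviral vector, were selected with puromycin, grew in RPMI with fetal bovine serum and received no treatment. There were 2 independent experiments with 1 control and 1 Myc-TRIM40 library in each, so 4 libraries in all, and whether the experiments started from separate transductions is not given in the sources used here.

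APOL proteins are small helical proteins that associate with membranes, and their genes lie near each other on a single chromosome arm. Interferons and other inflammatory cytokines are well known to raise the transcripts of several of them in epithelial, endothelial and myeloid cells. APOL1 is the member that is secreted, circulates on high-density lipoprotein and lyses African trypanosomes, whereas the other members stay inside the cell. The comparison addressed whether forced expression of TRIM40, a ubiquitin E3 ligase of the tripartite motif family, went with a different RNA level of these genes in colonic epithelial cells.

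Each library held between 60954602 and 67424698 reads assigned to transcripts. TRIM40 itself was listed at 0 reads in both control libraries, and Myc-TRIM40 libraries held 272646 of its reads in experiment 1 and 110665 in experiment 2, which matches the labels. Of 9 epithelial markers all were tested, with KRT8, a keratin of simple epithelia, at 3355 to 4435 FPKM and EPCAM, an epithelial adhesion molecule, at 321.8 to 621.0 FPKM (fragments scaled by transcript length and library total). The intestinal transcription factors were low, with CDX1 at 0.323 to 0.414 FPKM and CDX2 at 1.22 to 1.39 FPKM. Among 7 markers of other cells, CD3E, CDH5 and COL1A2 were listed at 0 in every library, PTPRC had at most 4 reads and PECAM1 had 17 to 31 reads. CD14 had 148 to 297 reads, or 1.43 to 2.61 FPKM, which was above CDX2 in every library. COL1A1 had 123 to 352 reads, or 0.297 to 0.945 FPKM. The summed FPKM of the 7 was 2.11 and 3.42 in the control and Myc-TRIM40 libraries of experiment 1 and 2.98 and 2.56 in those of experiment 2.

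All 5 members lie on chromosome 22 of hg19, in the order APOL6, APOL3, APOL4, APOL2 and APOL1, over 619154 bases. APOL6 occupies chr22:36044424-36064456 on the plus strand and stands 471914 bases away from the rest. APOL3 occupies chr22:36536371-36562225, APOL4 chr22:36585176-36600879 and APOL2 chr22:36622255-36636000, all on the minus strand, and APOL1 occupies chr22:36649117-36663577 on the plus strand. The gaps between these 4 neighbours were 22950, 21375 and 13116 bases, and no locus of a member overlapped another gene in the tables. Of the 75-base words in the coding transcripts of the members, none was shared between members, and at most 0.798%, for APOL1, occurred in any other gene.

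Across the libraries APOL1 and APOL2 were the most abundant members per length of transcript, APOL6 was intermediate, APOL3 was low and APOL4 was close to absent. The order by FPKM was APOL1, APOL2, APOL6, APOL3 and APOL4 in 3 of the 4 libraries, and in the control library of experiment 2 APOL2 stood above APOL1. The ratio of APOL1 to APOL2 in FPKM ranged from 0.785 to 1.41 over the 4 libraries, so these neighbours did not differ beyond their spread. APOL2 was 2.53 to 4.67 times as high as APOL6 in FPKM within a library, and APOL6 was 3.81 to 5.93 times as high as APOL3. Between libraries the ranges of APOL6 and APOL3 overlapped, since APOL3 reached 1.44 FPKM in one library and APOL6 was at 1.21 FPKM in another.

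**Figure D1:**
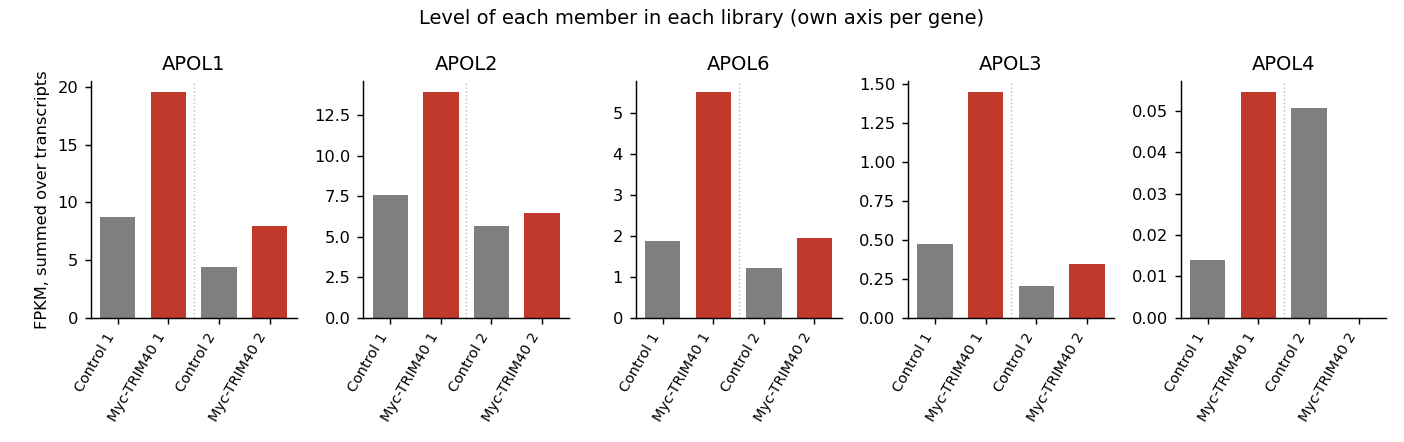
Bars give the FPKM of each member, summed over its transcripts, in each of the 4 libraries, with grey for control and red for Myc-TRIM40, and each gene has its own axis starting at 0. The red bar is above the grey bar of the same experiment for APOL1, APOL2, APOL6 and APOL3, and APOL4 stays under 0.06 FPKM throughout.

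Within each experiment the reads of APOL1, APOL2, APOL3 and APOL6 were higher in the Myc-TRIM40 library than in its control, and those of APOL4 were higher in experiment 1 and lower in experiment 2. No member passed the gene-wise test at an adjusted p of 0.05, in the edgeR quasi-likelihood test with the experiment as a block and Benjamini-Hochberg adjustment over 14868 genes. The same test called 6 genes higher (0.0404% of those tested) and 3 lower (0.0202%). Before adjustment 2 members, APOL1 and APOL6, had an edgeR p under 0.05 and were higher, beside 3.41% of all genes tested that were higher at that p. DESeq2 called 0 of the 5 members and 0.303% of all genes higher, and limma on log2(FPKM + 1) called 0 of the 3 members it covered and 0.0339% of its genes higher. Unadjusted, the same 2 members passed and were higher with each of these tools as well, beside 2.37% of all genes with DESeq2 and 3.65% with limma.

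The median log2 fold change of the members in the edgeR fit was 0.77, beside 0.04 over all genes tested. Counting directions, 4 of the 5 members were higher in CPM (reads scaled to the library total with TMM factors) within both experiments, as were 28.6% of all genes tested. Both Myc-TRIM40 libraries were above both control libraries for 1 member, APOL6, and for 11.0% of all genes tested. The FPKM + 1 was at least 1.5-fold higher in both experiments for 1 member, APOL1, and for 0.457% of all genes tested. The added 1 weighs most on members of low FPKM. Without it the ratios in experiments 1 and 2 were 2.23 and 1.78 for APOL1, 2.93 and 1.60 for APOL6, and 3.06 and 1.69 for APOL3. They were 1.83 and 1.14 for APOL2 and 3.88 and 0 for APOL4. The share of all genes was not counted on that scale. The study chose lists of changed genes on these RNA samples and on microarrays, with APOL1 in the former and APOL6 in the latter, so the direction of APOL1 here is not independent evidence. All members were also chosen with earlier results of these data known, so the counts and the median of the family are not independent evidence either. In bulk RNA a change in the share of cells that carry a transcript and a change in the amount per cell cannot be told apart.

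**Figure D2:**
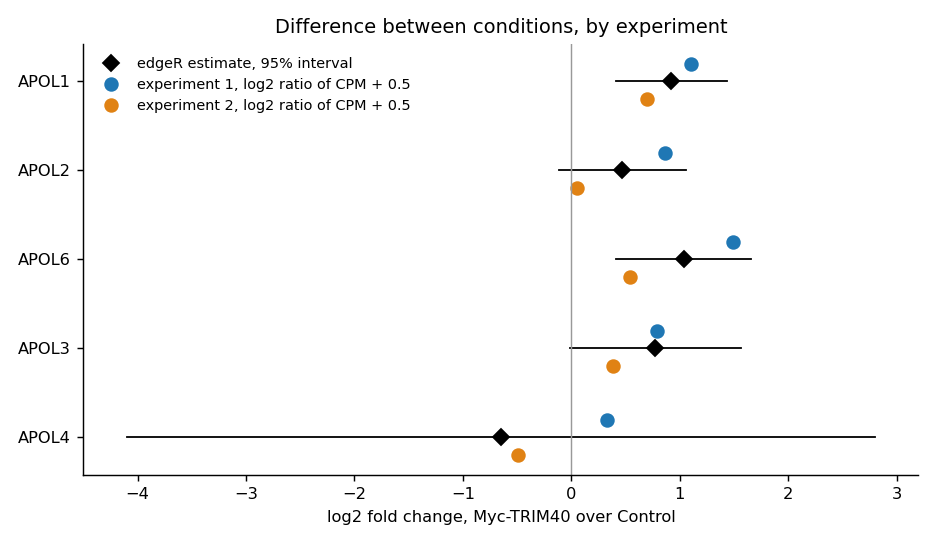
Horizontal position is the log2 fold change of Myc-TRIM40 over control. Blue and orange circles are the log2 ratios of CPM + 0.5 in experiments 1 and 2, and black diamonds with lines are the edgeR estimates with their 95% intervals. The intervals of APOL1 and APOL6 lie above 0 before adjustment for the number of genes, and every blue circle lies to the right of the orange circle of the same gene.

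APOL1 (gene ID 8542) encodes the secreted trypanolytic factor. In experiment 1 its reads numbered 1577 in the control and 3524 in the Myc-TRIM40 library, and in experiment 2 they numbered 885 and 1472. The corresponding levels were 8.75 and 19.5 FPKM, and 4.44 and 7.93 FPKM. Both Myc-TRIM40 libraries were above their own control, but the groups overlapped, because the control of experiment 1 was above the Myc-TRIM40 library of experiment 2. The ratio of normalised reads was 2.18 in experiment 1 (95% interval 2.05 to 2.31) and 1.65 in experiment 2 (1.52 to 1.79), where these intervals, like all those within an experiment, cover counting error only. The edgeR log2 fold change was 0.92 ± 0.22 (SE, n = 2 per group, 95% interval 0.41 to 1.43), with an unadjusted p of 0.00292 and an adjusted p of 0.543. The 4 libraries left 1 residual degree of freedom, and edgeR added 7.44 degrees of freedom from the spread of the other genes, so the p-values rest mostly on the latter. In a fit without the block that left out the Myc-TRIM40 library of experiment 1 the estimate was 0.21. The control libraries differed from each other by 1.86-fold in normalised reads, close to the difference between conditions.

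APOL6 (gene ID 80830) is described as a cytosolic protein with a BH3-like motif linked to cell death. It gave the highest fold change of the family in the edgeR fit, whereas limma on log2(FPKM + 1) put it at 0.79 and APOL1 at 0.89 on the log2 scale. The added 1 weighs more on APOL6, which was at lower FPKM than APOL1 in every library. Control and Myc-TRIM40 libraries held 1194 and 3499 of its reads in experiment 1 and 852 and 1262 of them in experiment 2. This single transcript of 10139 bases stood at 1.88 and 5.50 FPKM in experiment 1 and at 1.21 and 1.94 FPKM in experiment 2. The groups did not overlap, although the margin was narrow, with 1.88 FPKM in the higher control and 1.94 FPKM in the lower Myc-TRIM40 library. In CPM, the scale on which overlap was counted, these libraries were at 19.56 and 19.62. That margin is smaller than the counting error of such read numbers. The ratio of normalised reads was 2.85 (2.67 to 3.05) in experiment 1, above the interval of APOL1, and 1.47 (1.34 to 1.60) in experiment 2, where the interval overlapped that of APOL1. In the edgeR fit the log2 fold change was 1.04 ± 0.27 (SE, n = 2 per group, 95% interval 0.41 to 1.66), with an unadjusted p of 0.00473 and an adjusted p of 0.670. Without the Myc-TRIM40 library of experiment 1, in a fit with no block, it was 0.25.

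APOL2 (gene ID 23780), an intracellular member found at the endoplasmic reticulum, differed between the experiments in whether a difference was seen. It had 1209 and 2289 reads in the control and Myc-TRIM40 libraries of experiment 1, or 7.59 and 13.9 FPKM. In experiment 2 it had 1039 and 1087 reads, or 5.66 and 6.45 FPKM. The groups overlapped, and the experiment 1 Myc-TRIM40 library alone stood apart from the other 3. The ratio of normalised reads was 1.84 (1.72 to 1.98) in experiment 1 and 1.04 (0.951 to 1.13) in experiment 2, the latter within counting error of no difference. The edgeR log2 fold change was 0.47 ± 0.26 (SE, n = 2 per group, 95% interval -0.12 to 1.05), with an adjusted p of 0.888. When the Myc-TRIM40 library of experiment 1 was left out, in a fit without the block, the estimate was -0.095.

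APOL3 (gene ID 80833) acts inside the cell, where it is known to permeabilise bacterial membranes together with guanylate-binding proteins and to bind regulators of Golgi phosphoinositides. In control and Myc-TRIM40 libraries it was represented by 103 and 206 reads (experiment 1) and by 52 and 78 reads (experiment 2). Each Myc-TRIM40 library was above its own control, and the control of experiment 1 was above the Myc-TRIM40 library of experiment 2. The ratio of normalised reads was 1.95 (1.53 to 2.49) in experiment 1 and 1.49 (1.03 to 2.15) in experiment 2. On the FPKM scale the levels were 0.471 and 1.44 in experiment 1 and 0.204 and 0.346 in experiment 2, and the ratio in experiment 1 was 3.06, since the reads of that Myc-TRIM40 library were placed on shorter transcripts. The edgeR log2 fold change was 0.77 ± 0.35 (SE, n = 2 per group, 95% interval -0.01 to 1.56), with an adjusted p of 0.888. In a fit without the block that left out the Myc-TRIM40 library of experiment 1, it was -0.044. That fit kept the control of experiment 1 without its partner, and this control was 2.07-fold above that of experiment 2 in normalised reads. Within experiment 2 alone the log2 ratio of CPM + 0.5 was 0.38.

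APOL4 (gene ID 80832), whose protein has no well-established role, was at the edge of detection. It had 3 and 12 reads in the control and Myc-TRIM40 libraries of experiment 1, and 13 and 0 reads in those of experiment 2. The experiments went opposite ways, at low counts. The ratio of normalised reads was 3.89 in experiment 1, with an interval from 1.05 to 21.5. In experiment 2 a count of 0, taken as 3 reads, stood 4.37-fold below the control. That value takes the 13 control reads as free of error. The counting interval of the ratio had an upper limit of 0.325, also below 1. The edgeR log2 fold change was -0.65 ± 1.51 (SE, n = 2 per group, 95% interval -4.10 to 2.80), with an adjusted p of 0.954.

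The family as a whole summed to 18.7 and 40.4 FPKM in the control and Myc-TRIM40 libraries of experiment 1 and to 11.6 and 16.7 FPKM in those of experiment 2. In normalised reads the ratio of the sums was 2.27 (2.19 to 2.36) in experiment 1 and 1.36 (1.296 to 1.43) in experiment 2. The log2 ratio was higher in experiment 1 than in experiment 2 for all 5 members, a difference that could not be tested with 1 library per condition in each experiment. The Myc-TRIM40 libraries held 4349 CPM of TRIM40 in experiment 1 and 1721 CPM in experiment 2, and its part in the difference was not tested. Placed among all genes tested in experiment 1, the log2 ratios of APOL6, APOL1, APOL2 and APOL3 stood above 99.1%, 98.5%, 97.48% and 97.0% of them. In experiment 2 the same genes stood above 87.8%, 93.2%, 52.4% and 79.6%, so APOL2 was then near the middle of all genes.

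The scale of the values moved the ratios of experiment 2. Over genes whose mean FPKM reached 1, the median log2 ratio of Myc-TRIM40 to control in that experiment was 0.10 for FPKM + 1 and 0.33 for TPM + 1 (FPKM rescaled to a common sum), whereas it was 0.02 for CPM + 0.5 over the genes tested. Less the median of all genes, the log2 ratios of FPKM + 1 in experiment 2 were 0.61 for APOL1, 0.31 for APOL6, 0.06 for APOL2, 0.06 for APOL3 and -0.17 for APOL4. In experiment 1 the median was 0.01 for FPKM + 1 and 0.04 for TPM + 1. APOL3 was at 0.204 and 0.346 FPKM in experiment 2, so the added 1 outweighed its level. Its log2 ratio of CPM + 0.5 in that experiment was 0.38, against 0.05 for APOL2. The direction of each member within an experiment was the same on the scales of FPKM, TPM, CPM and median-centred FPKM.

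The tables divide the reads of each gene between RefSeq transcripts, and these divisions are estimates of the counting program, whose error is not covered by counting intervals or by a share of 0. Of the 15 transcripts, 5 had reads in every library and 2, APOL3 variant beta/b and APOL4 variant b, had none in any. For APOL1, variant 1 (2863 bases) took 70.8% of the reads of the gene in the control and 71.1% in the Myc-TRIM40 library of experiment 1 (exact 95% binomial intervals 68.5% to 73.1% and 69.6% to 72.6%). In experiment 2 its share was 84.3% in the control and 62.1% in the Myc-TRIM40 library (81.7% to 86.6% and 59.6% to 64.6%). Variant 1 was thus the main APOL1 transcript in all 4 libraries, and its reads were higher in Myc-TRIM40 in both experiments, at 1117 against 2505 and 746 against 914. Variant 2 of APOL1 had 45 reads in control and 124 in Myc-TRIM40 of experiment 1, and 0 and 208 in experiment 2. Variants 3 and 4 were higher in Myc-TRIM40 in both experiments.

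The APOL2 transcripts differ at their 5' ends, with the start of variant beta lying 311 bases upstream of that of variant alpha. In the control library of experiment 1 all 1209 reads were placed on variant alpha and none on beta. In the other 3 libraries beta took 56.6% to 70.2% of the reads, so the control of experiment 1 stood apart from the control of experiment 2. Neither APOL2 transcript moved the same way in both experiments, since alpha went from 1209 to 959 reads and from 310 to 472 reads, and beta from 0 to 1330 reads and from 729 to 615 reads.

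The division was least stable for APOL3, whose 6 transcripts fall into an alpha group and a longer beta group that starts further upstream. Variant beta/a (3633 bases) took 90.3% of 103 reads in the control of experiment 1, all 52 reads in the control of experiment 2 and 91.0% of 78 reads in Myc-TRIM40 of that experiment. The Myc-TRIM40 library of experiment 1 gave it 0 of 206 reads, and the reads were placed on variants alpha/a (61 reads), alpha/c (103 reads) and alpha/d (42 reads). APOL4 had reads on variant a alone, and APOL6 has a single transcript in the tables.

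**Figure D3:**
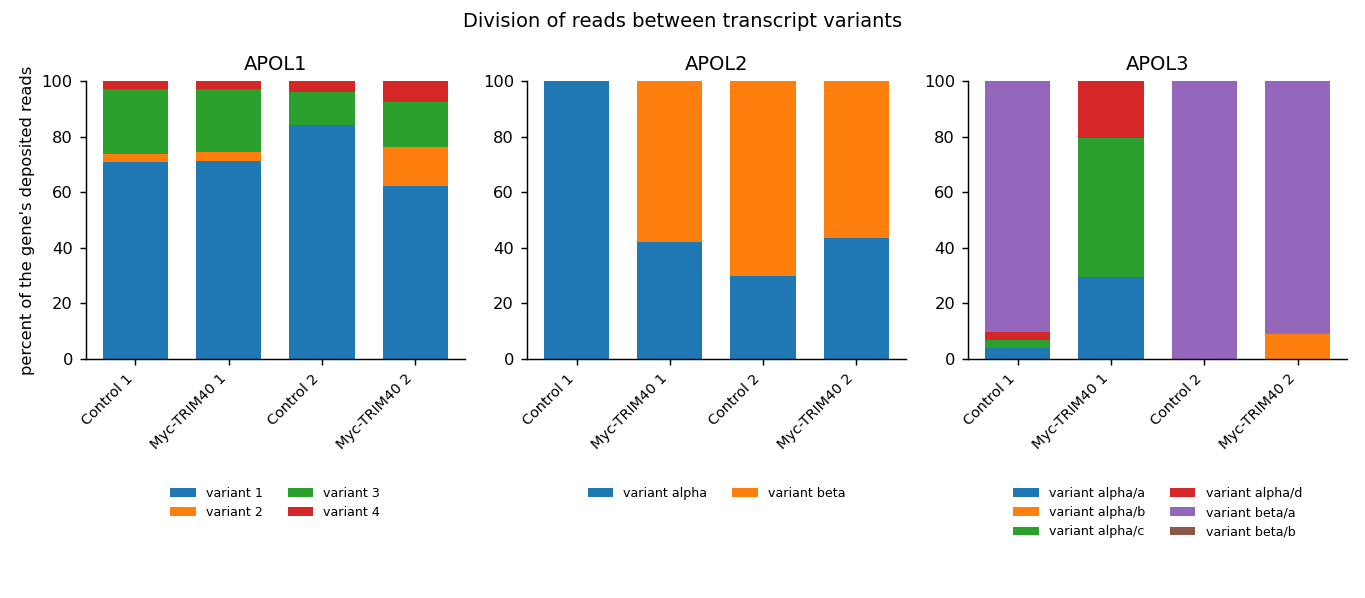
Stacked bars give the percent of each gene's deposited reads placed on each of its transcript variants in the 4 libraries, for APOL1, APOL2 and APOL3. APOL1 variant 1 is the largest segment throughout, whereas the control of experiment 1 for APOL2 and the Myc-TRIM40 library of experiment 1 for APOL3 are divided unlike the other libraries.

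Interferon and NF-κB signal genes that act before APOL promoters, receptors included, were examined as a list of 13, all of which were tested. By edgeR 0 were called in either direction. An unadjusted edgeR p under 0.05 was seen for 2 (STAT2 and IRF9, both higher), beside 3.41% of all genes tested that were higher. The log2 fold change was above 0 for 12, with a list median of 0.30, beside a median of 0.04 over all genes tested. The share of all genes above 0 was not counted. DESeq2 called 1 of the 13 higher, IRF9, beside 0.303% of all genes, and limma called 0. The lowest value was -0.02 for IFNGR2, a chain of the interferon gamma receptor, and the highest was 1.49 ± 0.32 (SE) for IRF9, the DNA-binding subunit of a transcription factor complex activated by type I interferon (edgeR adjusted p = 0.395). IRF9 had 963 and 953 reads in the controls and 4360 and 1714 in Myc-TRIM40. Its groups did not overlap, as was so in that direction for 11.0% of all genes tested. IRF9 is in the list the study chose on these samples, and is not independent evidence of direction. The list median within an experiment was 0.18 in experiment 1 and 0.31 in experiment 2 on the log2 scale of CPM + 0.5.

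Guanylate-binding proteins, large interferon-inducible GTPases that act with APOL3 against cytosolic bacteria, were at low to moderate levels, and GBP5 had reads in a single library. Of 5 genes, 4 were tested, and 0 were called by edgeR, DESeq2 or limma. An unadjusted edgeR p under 0.05 was seen for 2, both higher, beside 3.41% of all genes tested that were higher. The median log2 fold change of the list was 0.95, with the lowest value for GBP2 (0.19 ± 0.23, SE) and the highest for GBP1 (1.48 ± 0.48, SE, edgeR adjusted p = 0.888). GBP1 had 79 and 115 reads in the controls and 469 and 156 in Myc-TRIM40. As with the members, the list stood higher in experiment 1, with a median log2 ratio of 1.26, than in experiment 2, with 0.11.

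Partners of the APOL proteins showed no such values. HPR, the haptoglobin-related protein of the trypanolytic particle, and HP, haptoglobin, were listed at 0 in every library. APOA1, the main apolipoprotein of that particle, had at most 4 reads. Of the Golgi partners of APOL3, ARF1 was abundant at 323.8 to 369.7 FPKM. NCS1 was at 6.77 to 10.6 FPKM and PI4KB at 11.05 to 18.0 FPKM. Of these 3 genes, all tested, 0 were called by edgeR, DESeq2 or limma and 0 had an unadjusted edgeR p under 0.05. Their log2 fold changes ran from -0.07 for NCS1 to 0.19 for PI4KB. The relatives outside the members were APOL5, listed at 0 in every library, and APOLD1, a vascular relative on another chromosome, with 195 against 199 reads and 192 against 233 reads in control and Myc-TRIM40 (log2 fold change 0.13 ± 0.28, SE, edgeR adjusted p = 0.9496).

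**Figure D4:**
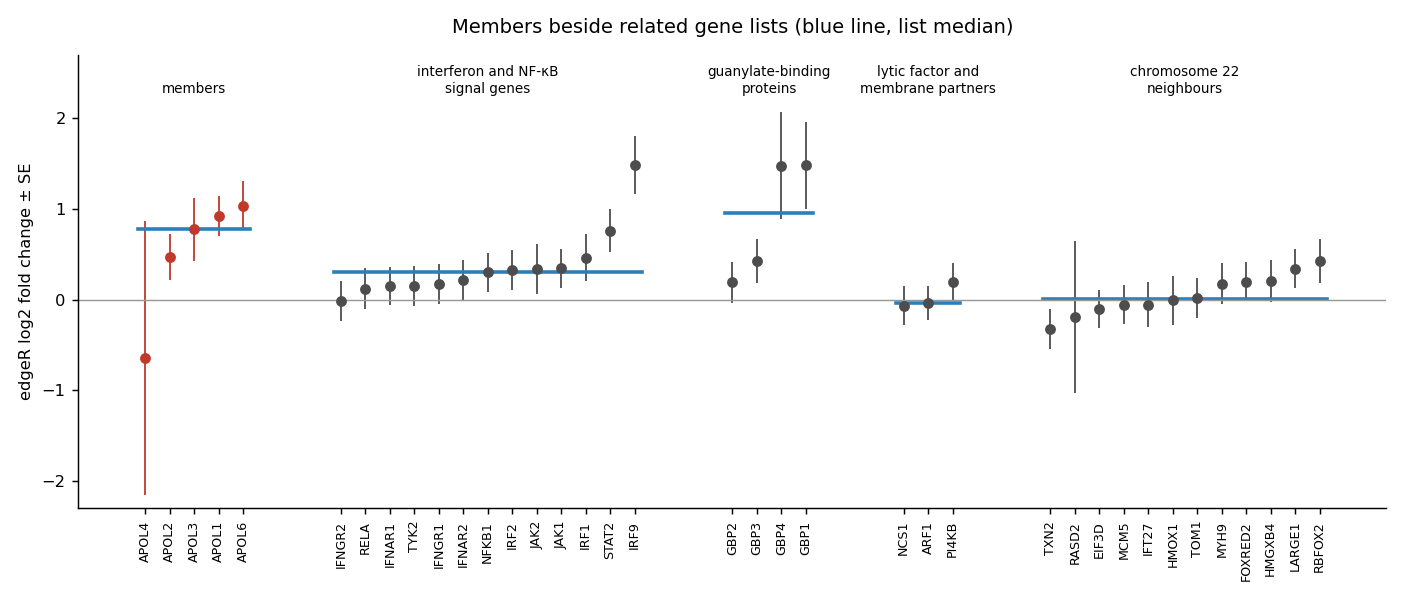
Points are edgeR log2 fold changes of Myc-TRIM40 over control with their SE, for the members in red and for the tested genes of 4 related lists in dark grey, and blue lines are list medians. The medians are 0.77 for the members, 0.30 for the signal genes, 0.95 for the guanylate-binding proteins, -0.03 for the partners and 0.00 for the neighbours.

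Other genes of the same stretch of chromosome 22 were compared as a list of 16 neighbours, of which 12 were tested. By edgeR, DESeq2 and limma 0 were called, and 0 had an unadjusted edgeR p under 0.05. Their edgeR log2 fold changes ran from -0.32 for TXN2, a mitochondrial thioredoxin, to 0.43 for RBFOX2, a splicing regulator. The RBFOX2 gene lies between APOL6 and APOL3. The neighbours had a median of 0.00, beside 0.04 over all genes tested. Of the 12, 6 were above 0, a share that was not counted over all genes. RBFOX2 differed from the members in its pattern, with log2 ratios of 0.07 in experiment 1 and 0.78 in experiment 2. MYH9, the nearest tested gene beyond APOL1, had log2 ratios of -0.21 and 0.57. The members APOL6, APOL2 and APOL1 exceeded the 12 neighbours in experiment 1, where the highest neighbour, HMOX1, was at 0.43, and APOL3 exceeded them as well.

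**Figure D5:**
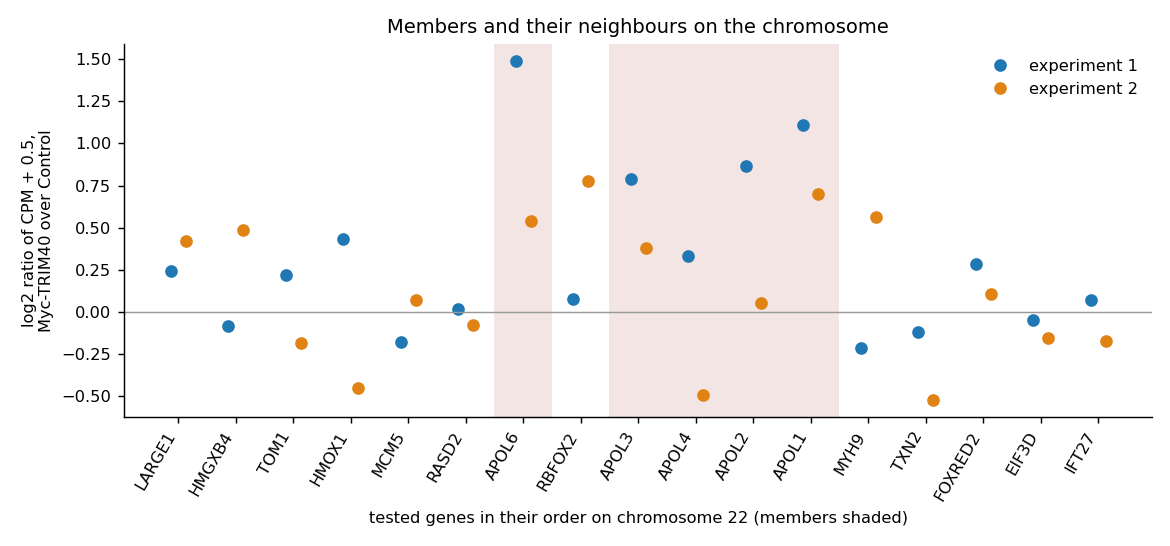
Circles give the log2 ratio of CPM + 0.5, Myc-TRIM40 over control, in experiment 1 (blue) and experiment 2 (orange) for the tested genes in their order along chromosome 22, with the members shaded. In experiment 1 APOL6, APOL3, APOL2 and APOL1 lie above every neighbour, and in experiment 2 they lie among the neighbours, with RBFOX2 highest.

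Genes whose pattern over the 4 libraries was most like that of a member were sought among 12579 other genes with a mean of at least 1 CPM, by the root mean square distance of log2(CPM + 0.5) after centring each gene. With 4 points and so many candidates, small distances arise readily, and they are given as a description only. For APOL2 the nearest gene was IRF1, an interferon-inducible transcription factor, at 0.0057, followed by MGAT3 at 0.0491. For APOL1 they were NFATC4 (0.0509), NKD1 (0.0894) and PTPN7 (0.0898), and for APOL3 they were HIST1H2AC (0.0441), SPP1 (0.0470) and FBXO32 (0.0544). APOL6 had no gene as close, and its nearest were SECTM1 (0.121), PLEKHA4 (0.123) and RND1 (0.124). IRF1 had 33.7 and 62.2 CPM in experiment 1 and 28.0 and 28.8 CPM in experiment 2, and APOL2 had 19.8 and 36.5 CPM and then 16.3 and 16.9 CPM in the same libraries. APOL4 was not searched, since its mean was under 1 CPM.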

How the data were processed

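RNA from HT-29 cells was sequenced in 2 independent experiments, with 1 control and 1 Myc-TRIM40 library each (TruSeq Stranded mRNA kit, NovaSeq sequencer). The submitters' processing notes name HISAT2 2.1.0, StringTie 1.3.4d and hg19. For each RefSeq transcript the authors deposited an estimated count in whole numbers, without normalization. The authors also deposited FPKM, scaled by transcript length and library total, transcript lengths in bases and, for experiment 2, TPM. TPM of experiment 1 was computed from the deposited FPKM. Whether counting used strand is not given in the sources used here.

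The members and lists were chosen with earlier results of these data known. Transcripts were summed per gene ID. Totals ranged from 60954602 to 67424698 reads, and the number of libraries, 2 per group, limits precision. In R 4.3.3, edgeR 4.0.16 (glmQLFit, glmQLFTest, TMM factors) was fitted to the 14868 genes that filterByExpr kept, with the experiment as a block and Benjamini-Hochberg adjustment. The numbers pair the libraries because each deposited table holds 1 control and 1 Myc-TRIM40 library of the same number, and deviations of same-numbered libraries from their group means had a correlation of 0.56. Counting intervals are exact binomial at 95%, and a count of 0 was taken as up to 3 reads. Such intervals cover counting error only. Words of 75 bases were compared in GENCODE 29 transcripts. Alternatives were no block, DESeq2 1.42.0, limma 3.58.1 on log2(FPKM + 1), upper-quartile scaling, no filter, each experiment or library left out, a pseudocount of 0.1, CPM + 0.5, median-centring and coding transcripts alone, and TPM + 1, which was chosen after seeing the data. The fit was also run on simulated counts, which held no difference between the experiments, so the use of the block was not tested there. Named genes were the members, TRIM40, the lowest, highest and called genes of each list, and the 3 genes nearest in pattern to each member. Python 3.11.15 with numpy 2.4.6, pandas 2.3.3, scipy 1.17.1 and matplotlib 3.10.9 was used for the rest. KRT8, EPCAM, CDX1, CDX2, STAT2, MYH9, HMOX1, GBP5, ARF1 and the markers of other cells were named after their values were seen. Microarray experiments were not analysed here, and a gene of the signal list is not reported here, so the counts and medians of that list exclude it.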

Additional observations from a re-analysis of the deposited data

How the results depend on the processing

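No member passed an adjusted p of 0.05 under any alternative. The adjusted p of APOL1 ranged from 0.156 to 1.00 over 9 fits and that of APOL6 from 0.161 to 1.00. Without the replicate block the log2 fold changes were 0.99 for APOL1, 0.56 for APOL2, 0.85 for APOL3, -0.41 for APOL4 and 1.196 for APOL6, and 0 genes were called higher and 0 lower (128 and 25 at an unadjusted p under 0.05). With no filter 0 genes were called in either direction (343 and 104 unadjusted). DESeq2 called 45 genes higher and 9 lower, and limma 1 lower. Leaving out 1 library or 1 experiment moved the log2 fold change of APOL1 between 0.21 and 1.498, of APOL2 between -0.095 and 1.01, of APOL3 between -0.044 and 1.41, of APOL4 between -6.02 and 0.93 and of APOL6 between 0.25 and 1.76, and the counts between 8 and 97 higher and 4 and 19 lower. Fits with 1 library left out had no block, so the remaining library of that experiment was compared without its partner. The lowest value of APOL1, APOL2, APOL3 and APOL6 came from such a fit, without the Myc-TRIM40 library of experiment 1. With the whole of experiment 1 left out, the log2 ratios of CPM + 0.5 were 0.70 for APOL1, 0.05 for APOL2, 0.38 for APOL3 and 0.54 for APOL6. A lone library left in a group is assumed to vary like the other group. APOL4 changed sign without the control of experiment 2 (0.93), the Myc-TRIM40 library of experiment 2 (0.58) or the whole of experiment 2 (0.33).

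Within an experiment, TPM + 1 gave a log2 ratio of 0.99 for APOL1 in experiment 2. A pseudocount of 0.1 gave 1.43 for APOL3 in experiment 1, and 0.44 and -0.59 for APOL4 in experiments 1 and 2. CPM + 0.5 gave 0.33 and -0.49 for APOL4, and centring gave -0.17 in experiment 2. The other 43 ratios moved by less than the SD between the experiments. The causes were not tested. APOL3 and APOL4 had mean FPKM under 1 and could not be fitted by limma. APOL4, with 0 to 13 reads, had counting intervals that excluded 1 in opposite directions in the experiments. The reads of APOL3 numbered 52 to 206. An exact permutation test of 2 against 2 libraries cannot go below a two-sided p of 0.333.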
